A study of Mus musculus with 4 samples.

Results

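Transcripts of 6 genes of the endocannabinoid system were followed in nuclei of the developing mouse superior colliculus: the receptor Cnr1, the 2-arachidonoylglycerol (2-AG) synthases Dagla and Daglb, the N-acylethanolamine synthase Napepld, and the hydrolases Mgll and Faah. They were taken by gene symbol from the 31053 genes of the deposited count matrix, and all 6 were found there. The set was proposed because Mgll was higher at P8 than at P4 in excitatory neurons, so that comparison is given as a description.

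Endocannabinoids are lipids made on demand in the membrane of a neuron, often the postsynaptic one, that act back on CB1 receptors of the presynaptic terminal and lower transmitter release. 2-AG is made from diacylglycerol by diacylglycerol lipases and broken down mainly by monoacylglycerol lipase, while anandamide is made in part through the phospholipase D encoded by Napepld and broken down by fatty acid amide hydrolase. In the developing brain the same signals take part in axon growth and in the plasticity of young synapses, and the superior colliculus is a midbrain region where retinal and other sensory axons find their targets around birth.

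The superior colliculus of C57BL/6J mice was sampled at embryonic day 19 (E19) and postnatal days 4, 8 and 21 (P4, P8, P21), with 1 library of 10x Genomics 3′ v3 single-nucleus RNA sequencing per stage. Tissue of more than 1 animal went into each library, the labels give neither the number nor the sex of these mice, and no genotype or treatment differed between the stages. The 4 libraries held 2249 to 2585 nuclei and 19277512 to 31325079 unique molecular identifiers (UMIs, each standing for 1 captured transcript), and the median depth was 6828 UMIs per nucleus at E19 and 11745 at P21. The study's own annotation, used here, divides the 9724 nuclei into 9 classes and 35 subtypes, among them excitatory subtypes EN1 to EN13 and inhibitory subtypes IN1 to IN12.

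A level is the sum of a gene's UMIs over the nuclei of a group per 1000000 UMIs of those nuclei (CPM). Ranges in brackets after a level are exact 95% Poisson intervals. A log2 ratio has 5 CPM added to both levels, which understates the change of low genes, and its 95% interval follows. Both cover counting error only, and with 1 library a stage there is no replicate check, no p-value and no test, so that stage and library cannot be told apart. The subtypes were defined from all genes, these 6 included, so differences between subtypes are descriptions.

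The labelled classes were checked against their markers. Summed Gad1, Gad2 and Slc32a1 stood at 680 to 950 CPM in inhibitory against 34.6 to 58.6 CPM in excitatory neurons, and summed astrocyte markers at 1441 to 2582 CPM in astrocytes. The astrocyte set did not set that class apart from vascular leptomeningeal cells, which had 1349 to 3151 CPM of it. In the P21 library the summed oligodendrocyte markers Mbp, Mog and Mobp were also found outside their own class, at 93.4 CPM in excitatory neurons, 151 CPM in astrocytes and 351 CPM in microglia, against 12352 CPM in the oligodendrocyte lineage. The subtype EN7 held 191 nuclei in the P4 library and 1 in the P8 library, so the results on excitatory neurons were also computed without it.

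The receptor gene Cnr1 encodes the CB1 receptor and lies on chromosome 4, 33924593 to 33948831 on the plus strand (mm10, GENCODE M21, as for all positions here). Its level was highest at E19 in both neuron classes. In excitatory neurons it was 55.1 CPM (50.9 to 59.5) at E19, 35.6 CPM (32.6 to 38.7) at P4, 40.03 CPM (36.7 to 43.6) at P8 and 30.2 CPM (27.4 to 33.1) at P21. In inhibitory neurons it was 66.1 CPM (59.7 to 73.0), 43.4 CPM (38.4 to 48.8), 36.3 CPM (32.8 to 40.003) and 32.6 CPM (29.3 to 36.1) at the same stages. The E19 interval lies above those of the other 3 stages in each class, and the P21 level was the lowest. From E19 to P21 the log2 ratio was −0.77 (−0.93 to −0.61) in excitatory and −0.92 (−1.11 to −0.73) in inhibitory neurons. Neither passed 2-fold (a log2 ratio of 1 in size), and of all genes with at least 20 CPM at the higher stage 10.7% and 11.3% were lower by more than that. With subtypes weighted alike both ratios were −1.02, and with each nucleus thinned to 2000 UMIs the inhibitory one was −1.02, just past 2-fold.

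The 2 neuron classes had similar levels of the receptor. Inhibitory neurons stood 1.20-fold (1.06 to 1.36) above excitatory neurons at E19 and 1.22-fold (1.05 to 1.41) at P4, whereas at P8 the ratio was 0.906 (0.794 to 1.03) and at P21 1.08 (0.936 to 1.24), with intervals that include 1. Astrocytes had 27.0, 13.9, 18.5 and 10.5 CPM from 25, 14, 23 and 17 UMIs at the 4 stages, between 0.335 and 0.484 of the level over all neurons. Astrocytes were also past 2-fold lower at P21 than at E19, with a log2 ratio of −1.05 (−1.74 to −0.33), but 18.2% of the genes tested in astrocytes were lower to that extent. The call was lost with 20 CPM added (−0.63), with subtypes weighted alike (−0.99) and with median-of-ratios scaling (−0.82). Myelinating oligodendrocytes had 5 Cnr1 UMIs at P21, a level of 3.19 CPM (1.04 to 7.44).

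Within the excitatory class, Cnr1 differed several-fold between subtypes. Of the subtypes with at least 30 nuclei, EN9 was highest at each stage, with 119, 114, 68.2 and 72.0 CPM, and EN4 stood among the 3 highest at each stage, with 88.7, 81.6, 58.0 and 56.4 CPM. EN12 had 91.8 CPM at P4, 66.4 CPM at P8 and 39.2 CPM at P21. EN8 was among the 3 lowest at each stage, with 24.6, 18.4, 15.4 and 12.7 CPM. The ratio of the highest to the lowest subtype with at least 30 nuclei was 12.3, 6.44, 4.44 and 6.84 in the order of the stages. Among inhibitory subtypes, IN8 (141, 66.0, 59.2 and 58.8 CPM) and IN6 (76.3, 99.6, 66.5 and 60.3 CPM) were high and IN5 (44.9, 21.9, 24.96 and 13.996 CPM) was low.

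The order of the subtypes was compared between stages as well. Spearman's rho between the Cnr1 levels of excitatory subtypes was 0.81 from E19 to P4 (11 subtypes), 0.79 from P4 to P8 (10 subtypes) and 0.92 from P8 to P21 (11 subtypes), and for inhibitory subtypes it was 0.93 (8 subtypes), 0.93 (8 subtypes) and 0.64 (10 subtypes). From E19 to P21 it was 0.52 over 9 excitatory and 0.78 over 10 inhibitory subtypes, and EN6 was the third highest excitatory subtype at E19 and the lowest at P21. These describe sums that share a library at each stage. The lower level at P21 was also spread over subtypes: from E19 to P21, Cnr1 was lower in 9 of 9 excitatory subtypes with at least 30 nuclei at both stages, beyond counting error in 7, and lower in 9 of 10 inhibitory subtypes, beyond counting error in 8. The median log2 ratio was −0.74 over those excitatory and −1.19 over those inhibitory subtypes. The exception was IN9, at 6.49 CPM (1 UMI) at E19 and 25.1 CPM (12 UMIs) at P21. EN6 went from 79.3 to 10.5 CPM, a log2 ratio of −2.44 (−3.33 to −1.45).

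A difference between stages in a class can be split into a part from the subtypes' shares of its UMIs and a part from the levels within the subtypes, each taken at the mean of both stages. For Cnr1 between E19 and P21 the level part was −32.6 of −24.9 CPM in excitatory neurons, with a share part of 7.74 CPM, and −34.0 of −33.5 CPM in inhibitory neurons, with a share part of 0.51 CPM. In the excitatory split, EN12 gave a level part of −6.86 CPM and a share part of 7.19 CPM. These rest on a level of 175 CPM from 22 nuclei at E19. Between P4 and P8 the excitatory class differed by 4.45 CPM, a log2 ratio of 0.15 (−0.01 to 0.31) with an interval that includes 0, which combined a share part of 12.4 CPM with a level part of −7.91 CPM. EN7, with 1 nucleus and 0 Cnr1 UMIs at P8, gave −1.65 CPM of that level part. Of 10 subtypes, 7 were lower at P8, beyond counting error in 2.

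**Figure D1:**
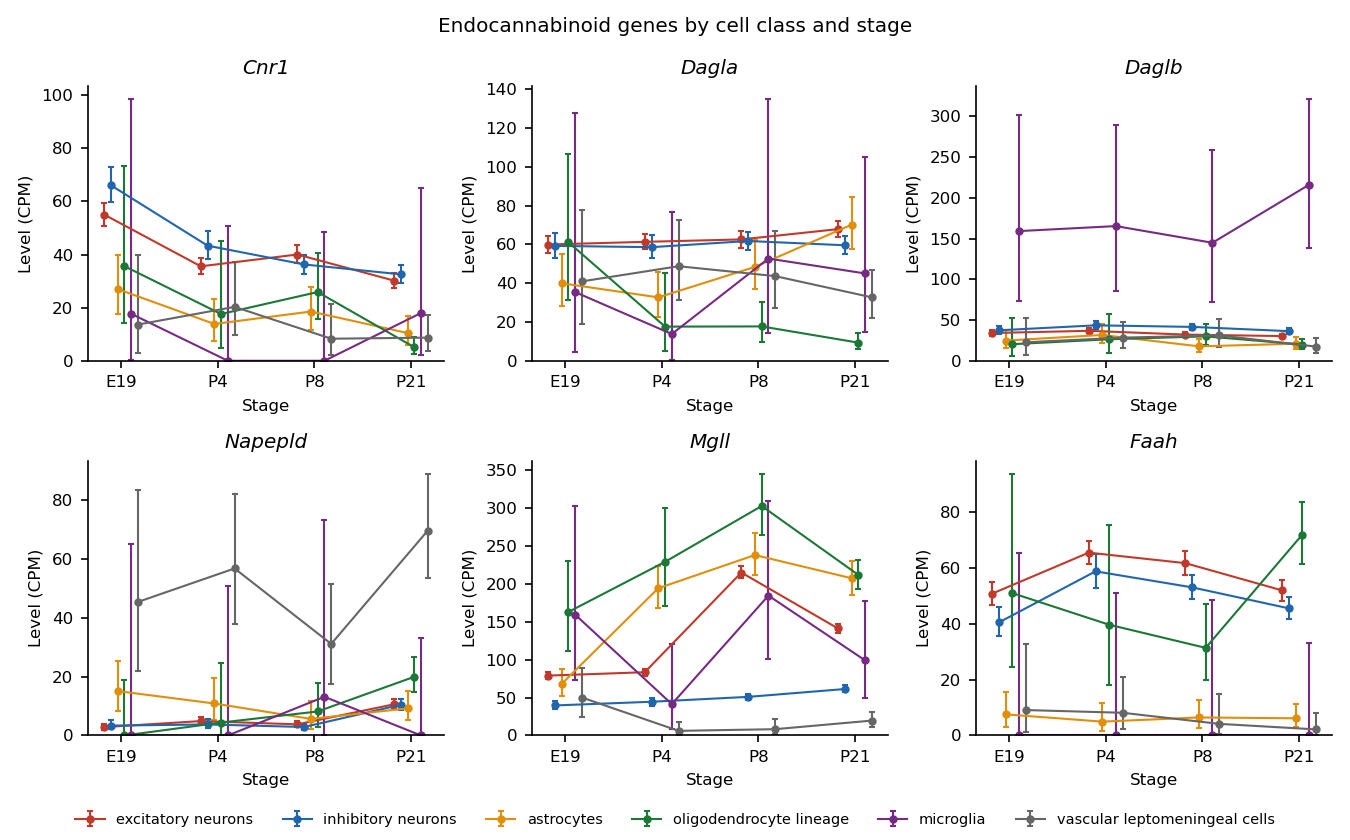
Level in CPM of the 6 genes at E19, P4, P8 and P21 (1 library per stage) in 6 cell classes; points are sums over nuclei and bars exact 95% Poisson intervals for counting error only. Cnr1 is highest at E19 in both neuron classes, Mgll in excitatory neurons goes from 83.4 CPM at P4 to 215 CPM at P8, Daglb is highest in microglia, Napepld in vascular leptomeningeal cells, and Faah is at 0 UMIs in microglia.

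Dagla (chromosome 19, 10245265 to 10304877, minus strand) encodes the diacylglycerol lipase that makes most 2-AG at adult synapses. Its level in each neuron class as a whole was nearly constant. Excitatory neurons had 59.9, 61.3, 62.5 and 67.8 CPM at E19, P4, P8 and P21, and inhibitory neurons 59.2, 58.6, 61.7 and 59.5 CPM. From E19 to P21 the log2 ratio was 0.17 (0.03 to 0.30) in excitatory and 0.01 (−0.17 to 0.18) in inhibitory neurons. Both intervals reach no further than 0.30 from 0. Subtypes also lay close together, with a ratio of highest to lowest of 1.78 to 2.42 in excitatory neurons, against 12.7 to 64.7 for Mgll. Single subtypes differed more between stages than the classes. From E19 to P21, 6 of 9 excitatory subtypes were higher, beyond counting error in 1, with log2 ratios from −0.36 to 1.23. Of 10 inhibitory subtypes 5 were higher, beyond counting error in 1, with log2 ratios from −0.49 to 1.03.

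Glia differed more between stages. Astrocytes had 39.9 CPM (37 UMIs) at E19, 32.7 CPM (33 UMIs) at P4, 48.4 CPM (60 UMIs) at P8 and 70.1 CPM (114 UMIs) at P21, a log2 ratio of 0.74 (0.24 to 1.25) from E19 to P21. At P21 the astrocyte level was at that of neurons, 1.09-fold (0.895 to 1.32), after 0.540-fold (0.370 to 0.763) at P4. Most of these UMIs were from protoplasmic astrocytes, at 77.9 CPM (64.0 to 94.0) at P21, and fibrous astrocytes had 22.05 CPM (7.16 to 51.5) from 5 UMIs. In the oligodendrocyte lineage Dagla was at 17.6, 17.7 and 9.35 CPM at P4, P8 and P21, and at P21 the level was 33.4 CPM in precursors (OPC), 14.4 CPM in committed oligodendrocytes and 3.19 CPM (1.04 to 7.44) in myelinating oligodendrocytes.

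Daglb (chromosome 5, 143464584 to 143505942, plus strand) encodes the second diacylglycerol lipase, which is known for 2-AG synthesis in macrophages and microglia. In neurons it stood at 30.3 to 36.8 CPM in the excitatory and 36.4 to 43.5 CPM in the inhibitory class. Inhibitory neurons had the higher level at each stage, by 1.10-fold (0.927 to 1.30) at E19, 1.18-fold (1.02 to 1.37) at P4, 1.29-fold (1.13 to 1.48) at P8 and 1.20-fold (1.05 to 1.37) at P21. The direction was the same in the 4 libraries and the interval included 1 only at E19, where thinning each nucleus to 2000 UMIs also turned the sign (log2 ratio −0.04, against 0.12).

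Microglia had the highest Daglb of all classes. From 9, 12, 11 and 24 UMIs in 13, 23, 21 and 33 nuclei, the level was 159 CPM at E19, 165 CPM at P4, 145 CPM at P8 and 216 CPM at P21. The ratio to all neurons was 4.52 (2.06 to 8.64) in the E19 library, 4.26 (2.19 to 7.48) at P4, 3.97 (1.98 to 7.14) in the P8 library and 6.56 (4.18 to 9.82) at P21. The UMIs came from 6, 9, 7 and 18 nuclei, with at most 4 in 1 nucleus. Rac1, on the opposite strand, overlaps Daglb and was also higher in microglia, at 142, 110, 79.0 and 144 CPM against 31.4 to 53.3 CPM in excitatory neurons. The labels do not say whether counting used the strand, and without it UMIs of the pair cannot be told apart.

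Per kilobase of gene body, the scale used here to compare genes with each other, Dagla and Daglb were close. Whether UMIs follow gene length in these data was not tested. Excitatory neurons over all stages had 1.06 CPM per kb of Dagla and 0.806 CPM per kb of Daglb, and inhibitory neurons 1.01 and 0.956 CPM per kb. On the same scale Cnr1 stood at 1.62 and 1.71 CPM per kb, Mgll at 1.25 and 0.492, Faah at 1.14 and 0.973, and Napepld at 0.149 and 0.145 CPM per kb. Napepld was thus the lowest of the 6 genes in both neuron classes.

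Napepld (chromosome 5, 21662901 to 21701396, minus strand) encodes the phospholipase D that releases anandamide and related lipids from membrane precursors. In neurons it was near 3 to 5 CPM until P8 and about 10 CPM at P21. Excitatory neurons had 2.86 CPM (33 UMIs) at E19, 4.90 CPM (73 UMIs) at P4, 3.79 CPM (50 UMIs) at P8 and 10.6 CPM (155 UMIs) at P21. Inhibitory neurons had 3.35 CPM (20 UMIs), 3.76 CPM (24 UMIs), 2.89 CPM (32 UMIs) and 10.4 CPM (118 UMIs). The P21 level lies above the intervals of the 3 earlier stages in both classes. From P8 to P21 the plain ratio, without added CPM, was 2.80 (2.02 to 3.93) in excitatory and 3.62 (2.43 to 5.52) in inhibitory neurons. With 5 CPM added the log2 ratios were 0.83 (0.59 to 1.05) and 0.97 (0.70 to 1.21), both short of 2-fold.

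The difference was found across the neuron subtypes. Of the excitatory subtypes with at least 30 nuclei at both stages, 11 of 11 were higher at P21 than at P8, beyond counting error in 6, and of the inhibitory subtypes 9 of 10 were, beyond counting error in 5. EN5 went from 2.16 CPM (3 UMIs) to 17.8 CPM (20 UMIs) and IN3 from 0.566 CPM (1 UMI) to 7.02 CPM (14 UMIs), and IN4 was the exception, at 5.04 and 4.41 CPM. The level part of the class difference was 6.85 of 6.82 CPM in excitatory and 7.77 of 7.55 CPM in inhibitory neurons. With under 20 CPM in neurons, Napepld did not enter the counts of genes past 2-fold. Oligodendrocyte markers stood higher in neurons in the same step, at 40.7 CPM at P8 and 93.4 CPM at P21 in the excitatory and 47.6 and 99.4 CPM in the inhibitory class, and their part in this result was not tested. Napepld in the oligodendrocyte lineage at P21 was 19.98 CPM (47 UMIs), in a class whose own markers summed to 12352 CPM.

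**Figure D2:**
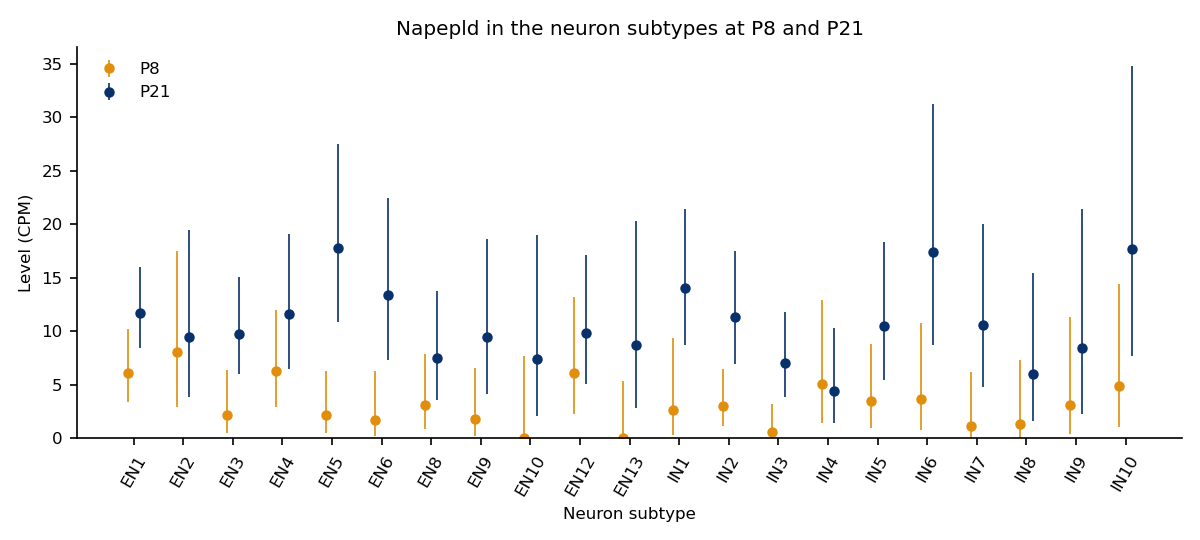
Napepld level in CPM at P8 and P21 in the neuron subtypes with at least 30 nuclei at both stages; points are sums over the nuclei of 1 library and bars exact 95% Poisson intervals. The P21 point lies above the P8 point in 11 of 11 excitatory and 9 of 10 inhibitory subtypes.

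Outside neurons, Napepld was highest in vascular leptomeningeal cells, the fibroblast-like cells of vessels and meninges. They had 45.5, 56.9, 31.2 and 69.8 CPM from 10, 28, 15 and 64 UMIs, between 6.62 times (4.96 to 8.72, P21) and 15.0 times (6.81 to 29.8, E19) the level over all neurons. Between 7 and 39 nuclei contributed at each stage, with at most 5 UMIs in 1 nucleus. These nuclei carried summed Col1a1, Col1a2 and Dcn at 1268 to 3310 CPM, and also astrocyte markers at 1349 to 3151 CPM. Astrocytes themselves had 5.64 to 15.1 CPM of Napepld, below the leptomeningeal level at each stage. Myelinating oligodendrocytes had 24.9 CPM (17.7 to 34.0) at P21.

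Mgll (chromosome 6, 88724412 to 88828360, plus strand) encodes monoacylglycerol lipase, the presynaptic and glial enzyme that ends the action of 2-AG. In excitatory neurons its level was 78.9 CPM (73.9 to 84.2) at E19, 83.4 CPM (78.8 to 88.2) at P4, 215 CPM (207 to 223) at P8 and 141 CPM (135 to 147) at P21. In inhibitory neurons it was 39.6 CPM (34.7 to 45.0), 44.5 CPM (39.4 to 49.9), 50.9 CPM (46.8 to 55.3) and 61.2 CPM (56.7 to 66.0). The excitatory class peaked at P8, while the inhibitory class was highest at P21. From P4 to P8 the log2 ratio in excitatory neurons was 1.31 (1.22 to 1.41), the difference for which the genes were chosen, and 0.361% of the genes tested were higher past 2-fold in that comparison. Without EN7 it was 1.13. In inhibitory neurons it was 0.18 (−0.01 to 0.37).

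Mgll in excitatory neurons was concentrated in 2 subtypes. EN5 had 870.5 CPM at E19, 649 CPM at P4, 584 CPM at P8 and 479 CPM at P21, and EN6 had 1150, 883, 966 and 428 CPM. The highest of the other excitatory subtypes with at least 30 nuclei was EN4 at E19 (114 CPM), EN12 at P4 (113 CPM) and P8 (176 CPM), and EN10 at P21 (211 CPM). Low subtypes were EN1, at 29.9 to 48.4 CPM, and EN2, at 23.1 to 46.8 CPM. EN5 and EN6 together exceeded the other excitatory neurons 25.4-fold (22.3 to 29.0) at E19 and 16.1-fold (14.4 to 17.99) at P4, and then 8.86-fold (8.18 to 9.60) at P8 and 5.25-fold (4.81 to 5.73) at P21, a gap that narrowed from each stage to the next.

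Single nuclei showed the same contrast. The median EN6 nucleus held 8, 6, 10 and 6 Mgll UMIs at the 4 stages and the median EN5 nucleus 5, 5.5, 5 and 6, whereas the median of the other excitatory nuclei was 0, 0, 1 and 1. At least 1 UMI was found in 95.8%, 92.0%, 97.5% and 97.8% of EN5 and EN6 nuclei and in 20.8%, 34.0%, 55.96% and 59.2% of the others, at median depths of 6969 to 15778 and 8165 to 20324 UMIs. After thinning each nucleus to 2000 UMIs, which no excitatory nucleus fell short of, the shares were 83.1%, 69.0%, 73.5% and 60.7% in EN5 and EN6 against 6.31%, 7.86%, 14.5% and 15.9%. In vascular leptomeningeal cells, where Mgll was at 6.09 to 50.01 CPM, 3.85% to 11.1% of nuclei had a UMI (1.28% to 2.86% after thinning), at median depths of 5610 to 6539 UMIs. Outside EN5 and EN6, 0 of 1267 nuclei at E19 and 0 of 1119 at P4 held 10 or more Mgll UMIs, against 3 of 663 at P8 and 12 of 547 at P21, of which 7 were EN12 nuclei and 1 was an EN11 nucleus with 43 UMIs at a depth of 244143.

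**Figure D3:**
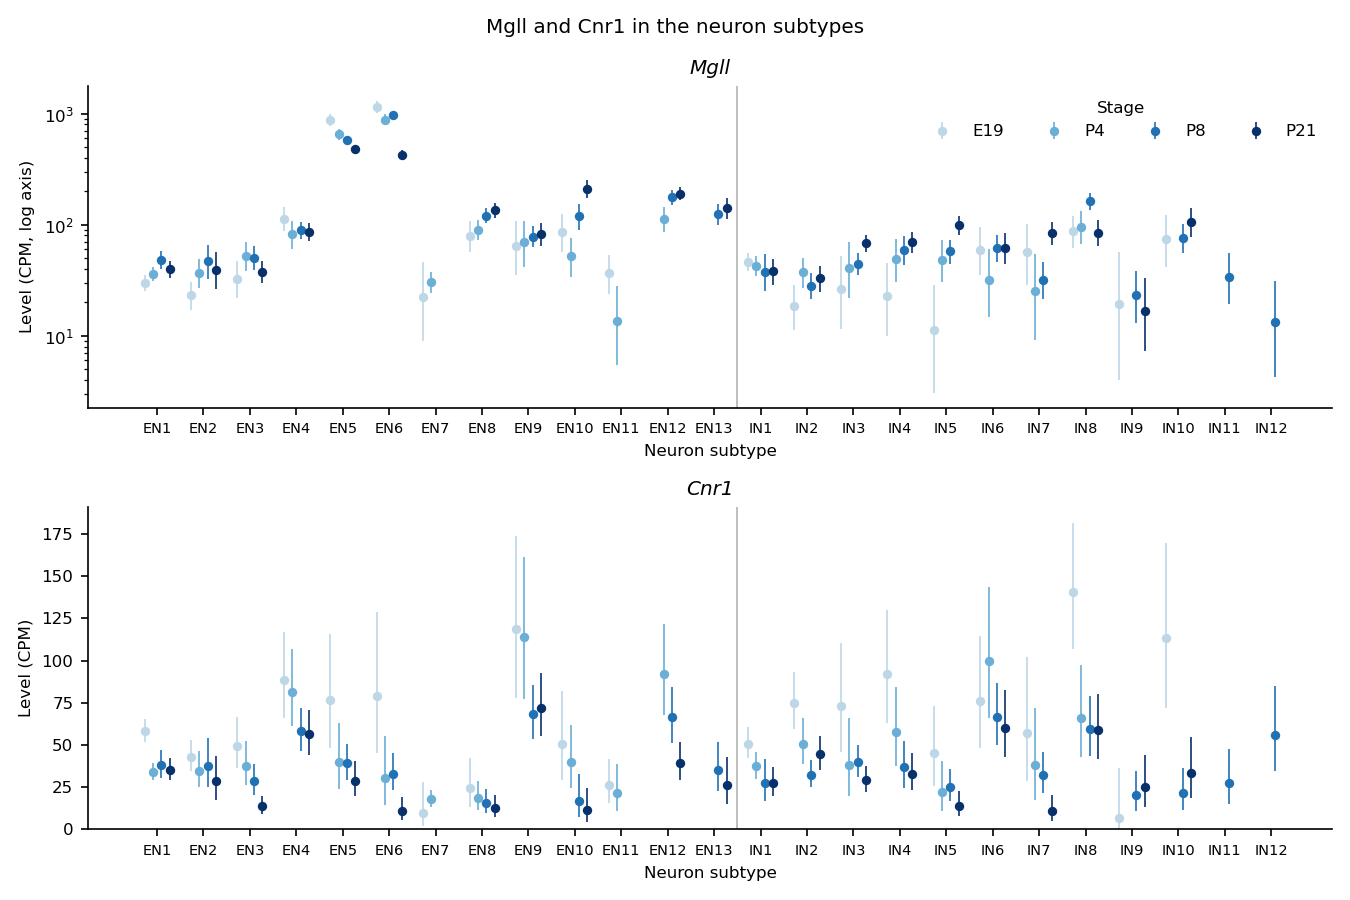
Level of Mgll (CPM, log axis) and of Cnr1 (CPM, linear axis) in each neuron subtype with at least 30 nuclei at a stage; shades mark the stage and bars are exact 95% Poisson intervals. EN5 and EN6 stand at 428 to 1150 CPM of Mgll, above all other subtypes, whereas Cnr1 is highest in EN9 and IN8 at E19 and lower at P21 in most subtypes.

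The summed Mgll level of EN5 and EN6 was close at P4 and P8. They stood at 748 CPM (689 to 811) at P4 and 757 CPM (724 to 792) at P8, a log2 ratio of 0.02 (−0.12 to 0.15). By subtype it was −0.15 (−0.34 to 0.04) in EN5 and 0.13 (−0.06 to 0.32) in EN6, both with intervals that include 0. Their shares of the class differed more. EN5 made up 3.81% of excitatory nuclei at P4 (46 nuclei) and 11.9% at P8 (103 nuclei), and EN6 3.40% (41 nuclei) and 11.6% (101 nuclei). Together they held 5.25% of the UMIs of excitatory neurons at P4 and 19.3% at P8, and 47.1% and 67.9% of the Mgll UMIs. A subtype's share can differ between libraries through the tissue, the dissection or the capture of nuclei, which cannot be told apart with 1 library a stage.

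Split as for Cnr1, the P4 to P8 difference of 131 CPM had a share part of 111 CPM, 84.8% of it, and a level part of 19.95 CPM. EN6 gave a share part of 60.2 CPM and EN5 one of 46.2 CPM, with level parts of 4.55 and −4.41 CPM. EN7, with 1 nucleus at P8, gave −11.6 and 5.99 CPM, values that rest on that nucleus. A share part uses the subtype's own level, so it is negative wherever the share is lower. EN7 stood at 30.6 CPM at P4, below the class level of 83.4 CPM, so its smaller share did not lower the class level. Leaving EN7 out made the class log2 ratio smaller, as given above. With the P8 levels and the P4 shares the class would stand at 108 CPM, and with the P4 levels and the P8 shares at 199.6 CPM. The 108 CPM rests in part on the 1 EN7 nucleus of P8, whose level of 94.7 CPM enters with the P4 share of 18.6%. With every subtype of at least 30 nuclei at both stages weighted alike, the log2 ratio was 0.14.

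A smaller difference was found outside those 2 subtypes. The other excitatory neurons had 38.8 CPM at E19, 46.6 CPM at P4, 85.4 CPM at P8 and 86.4 CPM at P21, a log2 ratio of 0.81 (0.68 to 0.95) from P4 to P8. The mix of these subtypes differed too. EN1 and EN7, at 35.8 and 30.6 CPM at P4, went from 36.7% and 18.6% of excitatory UMIs to 17.4% and 0.08%. EN12, at 113 CPM at P4, went from 3.51% to 7.53%. The pooled ratio of 0.81 thus mixes shares and levels. Over the 10 excitatory subtypes with at least 30 nuclei at both stages, 8 were higher at P8, beyond counting error in 4, and the median log2 ratio was 0.23. EN10 went from 51.8 to 119 CPM, a log2 ratio of 1.13 (0.48 to 1.79), and EN12 from 113 to 176 CPM, a log2 ratio of 0.62 (0.20 to 1.05).

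**Figure D4:**
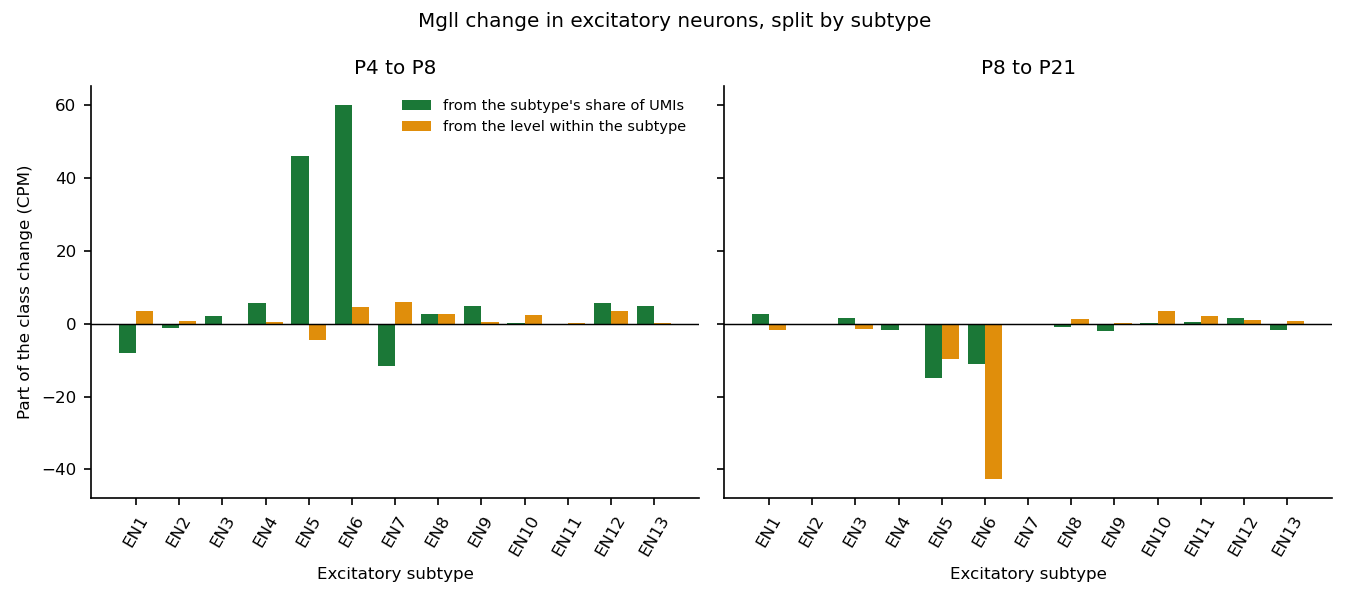
The change of Mgll in excitatory neurons from P4 to P8 (131 CPM) and from P8 to P21 (−73.7 CPM), split over the 13 subtypes into a part from the subtype's share of UMIs and a part from the level within it, both in CPM. EN5 and EN6 carry the first change through their shares (46.2 and 60.2 CPM) and EN6 carries the second through its level (−42.7 CPM); the EN7 bars rest on 1 nucleus at P8.

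The step from P8 to P21 had another make-up. The class level was lower by 73.7 CPM, and −47.6 CPM of this came from levels and −26.1 CPM from shares. EN6 alone gave a level part of −42.7 CPM, as it went from 966 CPM (1113 UMIs) to 428 CPM (447 UMIs), a log2 ratio of −1.17 (−1.32 to −1.01). Over all 4 stages, the direction depended on the weighting. From E19 to P21 the log2 ratio of the class was 0.80 (0.69 to 0.91), in EN5 and EN6 together it was −1.11 (−1.27 to −0.95), in the other excitatory neurons 1.06 (0.92 to 1.21), and with subtypes weighted alike −0.66. In that comparison 0 of the 5 genes with at least 20 CPM were past 2-fold in either neuron class, where 16% of all tested genes were in excitatory and 17.2% in inhibitory neurons.

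EN6 nuclei also carried astrocyte markers above the rest of the class, at 130 CPM at P4 and 151 CPM at P8 against 42.0 and 49.1 CPM in all excitatory neurons. Astrocytes had 1441 and 2124 CPM of these markers at P4 and P8 and a Mgll level of 194 and 238 CPM, lower than that of EN6. Gm26588, a gene antisense to Mgll, had 1, 1, 2 and 2 UMIs in EN5 and EN6 at the 4 stages, against 482 to 1923 Mgll UMIs. The part of astrocyte RNA or of overlapping genes in the Mgll values of EN5 and EN6 was not tested.

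Inhibitory neurons had less Mgll than excitatory neurons at each stage. The ratio of inhibitory to excitatory neurons was 0.502 (0.433 to 0.580) at E19 and 0.533 (0.467 to 0.607) at P4, followed by 0.237 (0.216 to 0.259) at P8 and 0.434 (0.398 to 0.473) at P21. It was past 2-fold lower on the log2 scale at P8 (−1.98, −2.10 to −1.85) and P21 (−1.14, −1.26 to −1.02), where 1.93% and 1.69% of the tested genes were. The P21 call was lost with neurons classed by transmitter UMIs (−0.93) and with 20 CPM added (−0.99). Without EN5 and EN6 those log2 ratios were −0.69 and −0.47, and at E19 it was 0.03. These 2 subtypes were left out with their high Mgll already known, and no inhibitory subtype was left out. A smaller gap was therefore given by the choice. At E19 the log2 ratio of −0.91 went past 2-fold under 4 settings (−1.06 to −2.30), and at P4 that of −0.84 did under 4 (−1.02 to −1.82, the first without EN7), where 0.984% of the tested genes were past 2-fold lower with all nuclei. IN8 was the highest inhibitory subtype until P8, at 87.3, 95.1 and 163 CPM, and stood at 84.4 CPM at P21. IN5 went from 11.2 CPM (4 UMIs) at E19 to 48.3, 57.7 and 98.8 CPM.

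Astrocytes and cells of the oligodendrocyte lineage had Mgll levels at or above those of neurons. Astrocytes stood at 68.0 CPM (63 UMIs) at E19, 194 CPM (196 UMIs) at P4, 238 CPM (295 UMIs) at P8 and 207 CPM (337 UMIs) at P21. The step fell between E19 and P4, with a log2 ratio of 1.45 (1.05 to 1.85), a size that 3.58% of the genes tested in astrocytes reached upward at 2-fold. From E19 to P21 it was 1.54 (1.17 to 1.92), and 8.6% of tested genes were higher past 2-fold. The 2 astrocyte subtypes differed in timing: protoplasmic astrocytes went from 72.0 to 226 CPM between E19 and P4, and fibrous astrocytes from 84.2 CPM (19 UMIs) at P4 to 254 CPM (56 UMIs) at P8. Compared with neurons, astrocytes were at 1.04-fold (0.793 to 1.34) at E19 and 2.71-fold (2.32 to 3.14) at P4.

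In the oligodendrocyte lineage the Mgll level was 163, 229, 302 and 212 CPM. OPC had 211 CPM (173 to 254) at P8 and 257 CPM (203 to 321) at P21, committed oligodendrocytes 519 CPM (426 to 626) and 323 CPM (275 to 378), and myelinating oligodendrocytes 168 CPM (149 to 190) at P21. The committed stage was thus above OPC in both libraries, though at P21 their intervals overlap. It was also above the myelinating stage at P21, the only stage for which a myelinating level is given. Microglia had 159, 41.3, 184 and 99.0 CPM, from 3 to 14 UMIs a stage. In vascular leptomeningeal cells Mgll was 50.01 CPM at E19 and 6.09 to 19.6 CPM later, between 0.0594 and 0.185 of the neuron level at P4, P8 and P21.

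Faah (chromosome 4, 115967145 to 116017926, minus strand) encodes the amidase that breaks down anandamide in the cell body and dendrites of neurons. In excitatory neurons it was 50.7 CPM (46.7 to 55.0) at E19, 65.4 CPM (61.3 to 69.6) at P4, 61.6 CPM (57.5 to 66.0) at P8 and 51.9 CPM (48.3 to 55.7) at P21. Inhibitory neurons had 40.4 CPM (35.5 to 45.9), 58.7 CPM (52.9 to 65.0), 53.0 CPM (48.8 to 57.4) and 45.5 CPM (41.6 to 49.6). In both classes the level was highest at P4, but close to that at P8. From P4 to P8 the log2 ratio was −0.08 (−0.21 to 0.05) in excitatory and −0.14 (−0.31 to 0.04) in inhibitory neurons, with intervals that include 0. E19 and P21 differed little, by a log2 ratio of 0.03 (−0.11 to 0.17) and 0.15 (−0.05 to 0.35). EN12 was the highest excitatory subtype at P4, P8 and P21, with 82.3, 114 and 80.8 CPM.

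Among the other classes, Faah was low in astrocytes, not detected in microglia and highest in myelinating cells. Astrocytes had 7, 5, 8 and 10 UMIs, a level of 4.95 to 7.56 CPM and 0.0781 to 0.160 of that of neurons. Microglia had 0 UMIs in 90 nuclei of the 4 stages, which allows up to 9.49 CPM (3 counts of their 316107 UMIs). At P21 the level was 30.1 CPM (13.7 to 57.0) in OPC, 59.7 CPM (40.0 to 85.7) in committed and 83.6 CPM (69.9 to 99.2) in myelinating oligodendrocytes, in 10.9%, 32.7% and 45.5% of nuclei at median depths of 4467, 8510 and 7860 UMIs. The myelinating level lies above the interval of OPC and above both neuron classes at that stage.

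**Figure D5:**
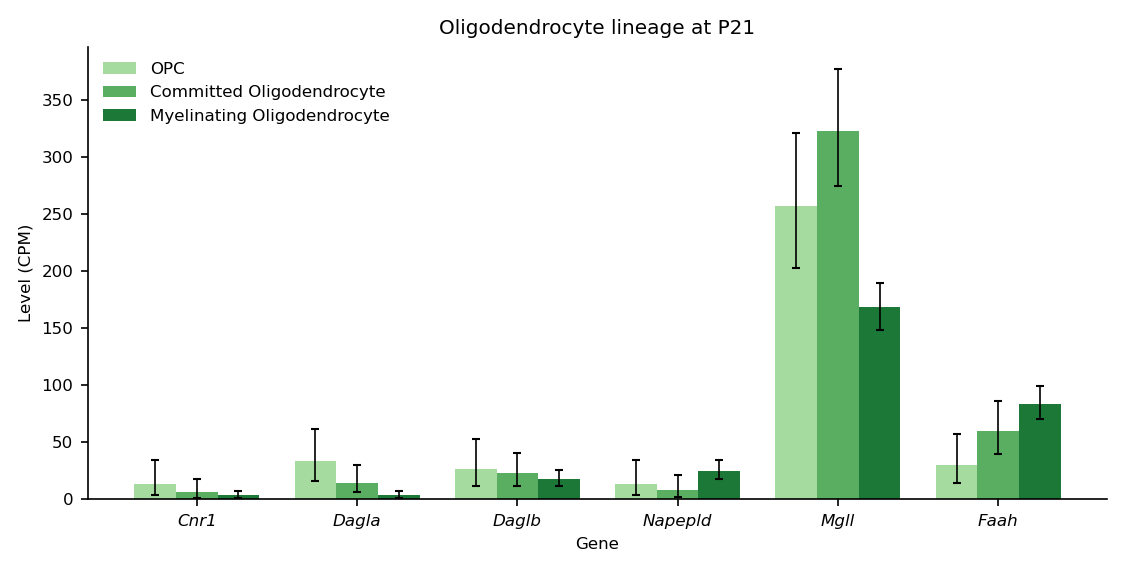
Level in CPM of the 6 genes at P21 in OPC (64 nuclei), committed oligodendrocytes (55 nuclei) and myelinating oligodendrocytes (187 nuclei); bars start at 0 and lines are exact 95% Poisson intervals for counting error only. Faah goes from 30.1 to 59.7 to 83.6 CPM along the lineage and Dagla from 33.4 to 14.4 to 3.19 CPM. Mgll is highest in the committed stage, at 323 CPM, with an interval that overlaps that of OPC.

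The balance between synthesis and breakdown genes can be read from UMIs of the same nuclei, as a log2 ratio without added counts. Dagla to Mgll in excitatory neurons was −0.40 (−0.54 to −0.25) at E19 and −0.44 (−0.57 to −0.32) at P4, but −1.78 (−1.89 to −1.67) at P8 and −1.06 (−1.17 to −0.95) at P21. The genes differ in length, so the sign of a ratio has no meaning of its own and only ratios of the same pair are compared. In inhibitory neurons it was 0.58, 0.40, 0.28 and −0.04, above the excitatory value at each stage. In excitatory neurons outside EN5 and EN6 it was 0.66, 0.41, −0.48 and −0.38. In EN5 and EN6 it went from −4.91 (−5.73 to −4.20) at E19 to −2.59 (−2.83 to −2.35) at P21, as Mgll was lower there and Dagla, at 32.7, 51.2, 68.1 and 75.6 CPM, higher. In astrocytes it was −0.77, −2.57, −2.30 and −1.56. Napepld to Faah in excitatory neurons was −4.15 (−4.70 to −3.64), −3.74 (−4.10 to −3.39), −4.02 (−4.47 to −3.61) and −2.29 (−2.55 to −2.04), and in inhibitory neurons −3.59, −3.97, −4.20 and −2.12. The P21 library stood apart from the 3 earlier ones in both classes for this pair.

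Correlations among the 6 genes over the neuron sums were low to moderate. Over 85 sums of a neuron subtype at a stage with at least 30 nuclei, Pearson's r between the log2 levels of any 2 of them ran from −0.40 (Daglb and Mgll) to 0.32 (Dagla and Faah). Such sums share 4 libraries and their depths, and are given as a description. Some hold few UMIs, such as Napepld with 0 in EN6 at E19 and at P4. Counting error draws such r values towards 0, so a low r does not show that 2 genes vary apart. Over 6775 genes, those most like Mgll were Hecw2 (r = 0.80), a ubiquitin ligase gene, Pdcd4 (r = 0.73), a translation inhibitor gene, and Ccdc85a (r = 0.71). Without the EN5 and EN6 sums these were 0.40, 0.38 and 0.52 over 77 sums. For Cnr1 the most alike were Gm35835 (r = 0.57), Gm17750 (r = 0.57) and Pard6g (r = 0.56), a polarity gene.

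Other genes of the pathway were taken from a list of 27 (further hydrolases and synthases, lipid carriers, other receptors, and the phospholipases C and their receptors that feed 2-AG synthesis), all in the matrix. From E19 to P21 in excitatory neurons, 15 had at least 20 CPM at the higher stage, 1 was higher (5.35% of all tested genes) and 3 lower (10.7%) past 2-fold, and the median log2 ratio was −0.12 against −0.06 over all 7650 tested genes. In inhibitory neurons 1 of 15 was higher (5.83% of all tested) and 3 lower (11.3%), with a median of 0.21 against −0.04 over 7807 genes. The 3 lower genes were the fatty acid binding proteins that carry anandamide in the cytosol, Fabp7 (−4.96 in excitatory and −5.14 in inhibitory neurons), Fabp5 (−3.33 and −3.56) and Fabp3 (−1.38 and −1.40). Fabp7, a glial gene, stood at 217 CPM in E19 and 2.12 CPM in P21 excitatory neurons, and went from 869 to 67.7 CPM in astrocytes. The part of astrocyte RNA in the neuron values was not tested. The higher gene was Pparg (1.40 and 1.25), a nuclear receptor, in both classes. In astrocytes 3 of 16 were higher, Plcb1 (3.71), Sgip1 (1.95), a CB1-binding protein gene, and Ppara (1.09), and 5 lower (8.6% and 18.2% of all tested genes were), Fabp7 (−3.59), Fabp5 (−2.90), Fabp3 (−1.67), Naaa (−1.30) and Grm5 (−1.14), with a median of −0.32 against −0.24 over 8577 genes.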

How the data were processed

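Single-nucleus libraries were processed by the authors with Cell Ranger 3.0.2, and aligned to mm10, per the submitters' processing notes; per the labels' design text a pre-mRNA reference was built, so that intronic reads were counted. The deposited matrix holds raw UMI counts per gene and nucleus, and the deposited table of nuclei gives stage, class, subtype, UMI totals (identical to the matrix in all 9724 nuclei) and the percent of mitochondrial UMIs; 8 columns of that table were not used. Nucleus filters, doublet handling, the naming of classes and the use of the read strand are not given in the sources used here. Of 9715 distinct barcode sequences, 9 occurred in more than 1 library.

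Counts were summed over nuclei per class or subtype and stage (Python 3.11.15, numpy 2.4.6, scipy 1.17.1, pandas 2.3.3). Ratios used a pseudocount of 5 CPM; intervals were exact Poisson, Clopper-Pearson for shares. A count of 0 was given a limit of 3 counts. Genes counted as past 2-fold had at least 20 CPM at the higher stage. Counts were simulated for excitatory neurons P4 to P8 with Poisson error only, the model on which the intervals are built. There, 95.6% of 7053 genes had an interval that held the true ratio. This checks the calculation, and spread between nuclei, subtypes or libraries was not simulated. EN5 and EN6 were picked out with their Mgll values already known. Stages, classes and subtypes were taken from the authors' annotation. The 6 genes, the pathway list and the markers were chosen with earlier results of these data known. Of the lists, 1 pathway gene and 1 oligodendrocyte marker are not reported here and were left out of the counts and sums. Named besides the 6 genes were the pathway genes past 2-fold from E19 to P21, the 3 genes most correlated with Cnr1 and with Mgll, and the subtypes with the 3 highest or lowest levels or the largest parts of the Mgll change; Rac1 and Gm26588 were added because they overlap members.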

Additional observations from a re-analysis of the deposited data

Results flagged for a closer look

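Mgll had ratios on opposite sides of 0 in the neuron classes between P8 and P21. Its log2 ratio was −0.59 (−0.67 to −0.51) in excitatory and 0.24 (0.10 to 0.39) in inhibitory neurons. In excitatory neurons outside EN5 and EN6 it was 0.02 (−0.11 to 0.14), and in EN5 and EN6 −0.73 (−0.84 to −0.62). With 1 library a stage the difference was not tested.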

How the results depend on the processing

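No paired analysis was possible because each stage has 1 library. The 43 log2 ratios of the 6 genes were recomputed 400 times in all, under 9 other settings and 1, leaving out EN5 and EN6, chosen after seeing the data. Of these, 346 stayed within the counting interval, 24 had the other sign and 28 crossed 2-fold; none that was past 2-fold changed sign. Mgll from P4 to P8 in excitatory neurons (1.31) was 1.18 with a pseudocount of 20 CPM, 0.14 with subtypes weighted alike, 1.13 without EN7, 1.41 with median-of-ratios scaling, 1.41 without the 5% of nuclei with most UMIs and 0.81 without EN5 and EN6. Mgll from E19 to P21 (0.80) was −0.66 with subtypes weighted alike, 0.91 with median-of-ratios scaling and 1.06 without EN5 and EN6. Cnr1 from E19 to P21 was −0.58 in excitatory and −0.71 in inhibitory neurons with 20 CPM added, and −1.02 in both classes with subtypes weighted alike, as in thinned inhibitory neurons. Mgll in inhibitory over excitatory neurons at P21 (−1.14) was −0.93 with neurons classed by transmitter UMIs and −0.99 with 20 CPM added. Median-of-ratios scaling shifted all E19 to P21 log2 ratios by 0.12 in excitatory neurons, 0.11 in inhibitory neurons and 0.30 in astrocytes, and turned the small Daglb ratios of inhibitory neurons (−0.04 to 0.06) and astrocytes (−0.20 to 0.04). Cnr1 in astrocytes (−1.05) was no longer past 2-fold then (−0.82), with 20 CPM added (−0.63) or with subtypes weighted alike (−0.99). With no filter on low values, 7.2% of genes were past 2-fold from E19 to P21 in excitatory neurons (16% with it), 8.14% in inhibitory neurons (17.2%) and 17.1% in astrocytes (26.8%), and 0.448% from P4 to P8 in excitatory neurons (1.19%). Microglia gave 9 to 24 Daglb UMIs a stage, which limits the precision of those ratios.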
